A study of Mus musculus with 8 samples.

Results

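Chromosomes 1, 16, 17 and 19 of mouse embryonic fibroblasts (MEF) were described in windows of 1 Mb on genome build mm10. They are the 4 autosomes, of 19, with the largest gain in share of the measured sites on day 1 of Etv2-induced reprogramming over day 0, so the difference between the days chose them and is given here as a description with no test. They hold 440 of the 2413 autosomal windows with sites, made up of 193 windows on chromosome 1, 96 on chromosome 16, 92 on chromosome 17 and 59 on chromosome 19. The chromosome with the smallest gain among the 4 is chromosome 16 (log2 ratio 0.31), and the first one outside them is chromosome 10 (0.27). The question put to the windows was whether the gain is even along each chromosome or broken into segments.

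The libraries come from 4 groups of 2. These are day 1 of reprogramming with the GpC methyltransferase M.CviPI (treated), day 1 without it (untreated), day 0 control MEF with it, and day 0 control MEF without it. How Etv2 was supplied to the cells, and which cells of the culture carried it, is not given in the sources used here. Whether replicates were grown as separate cultures is not labelled, so the p-values measure only the spread between these libraries, which may be technical. Only DNA was read, so the labelled cell type could not be checked against the expression of its markers.

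NOMe-seq reads where DNA is open. M.CviPI adds a methyl group to cytosines that follow a guanine (GpC) where no nucleosome or bound protein covers them, and bisulfite sequencing then reports methylated and unmethylated cytosines base by base. Etv2, an ETS family transcription factor, is a master regulator of the endothelial and blood lineages. The number of sites on a chromosome counts the cytosines covered by enough reads, whatever their methylation, while the methylated share of the calls (the level) is the accessibility readout in treated libraries and the background in untreated ones.

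The sequence around the sites shows what a site is. At RefSeq promoters (250 bases before to 50 after the gene start, assembly GRCm38.p6) all 13427 sites on the 4 chromosomes whose neighbours lie in the same window were the cytosine of a GpC, and 0 of them were followed by a guanine, so CpG methylation of the cell does not enter the level there. The same held for all 61806 such sites on the autosomes. The motif GC was searched on both strands, on which it reads the same. The median promoter held 20 GpC on the 4 chromosomes and 20 on the other 15 autosomes, and 100% and 99.988% of promoters held at least 1. With so few reads per site, only 3 promoters of protein-coding genes on the 4 chromosomes (1 of 1158 on chromosome 1, 0 of 609 on chromosome 16, 2 of 1046 on chromosome 17 and 0 of 696 on chromosome 19) had calls in all 4 treated libraries. They are shown because they are the places where the accessibility readout can be seen base by base, 5′ to 3′ on the strand of the gene, with every GpC that any library covered in capitals. Hjurp encodes the chaperone that places the centromeric histone CENP-A, Ndufaf7 a factor for the assembly of respiratory complex I, and Sgo1 the protector of centromeric cohesion. Their promoters lie at chr1:88277530-88277829 (minus strand), chr17:78936885-78937184 (plus strand) and chr17:53689266-53689565 (minus strand).
Hjurp: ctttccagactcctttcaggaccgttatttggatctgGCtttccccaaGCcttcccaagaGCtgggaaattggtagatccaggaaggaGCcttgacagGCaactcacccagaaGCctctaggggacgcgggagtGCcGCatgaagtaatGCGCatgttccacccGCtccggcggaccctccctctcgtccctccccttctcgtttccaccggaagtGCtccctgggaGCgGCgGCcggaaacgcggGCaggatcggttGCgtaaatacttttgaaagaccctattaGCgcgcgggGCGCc
Ndufaf7: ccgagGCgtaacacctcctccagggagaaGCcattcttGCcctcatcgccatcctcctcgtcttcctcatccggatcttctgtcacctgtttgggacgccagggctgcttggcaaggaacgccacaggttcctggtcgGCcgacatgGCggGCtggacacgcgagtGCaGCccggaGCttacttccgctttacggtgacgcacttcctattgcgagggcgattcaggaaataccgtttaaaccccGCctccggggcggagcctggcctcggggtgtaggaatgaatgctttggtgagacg
Sgo1: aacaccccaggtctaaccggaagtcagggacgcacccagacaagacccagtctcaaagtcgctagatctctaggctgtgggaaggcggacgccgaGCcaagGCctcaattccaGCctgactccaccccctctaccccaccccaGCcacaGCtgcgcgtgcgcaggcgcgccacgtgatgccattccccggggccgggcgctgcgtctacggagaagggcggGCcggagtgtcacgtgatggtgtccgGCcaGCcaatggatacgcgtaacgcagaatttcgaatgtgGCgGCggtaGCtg

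At the Hjurp promoter 137 calls fell on 25 cytosines. The treated libraries of day 1 had 11 of 15 calls methylated (73.3%, exact 95% interval 44.9% to 92.2%), against 14 of 25 in those of day 0 (56.0%, 34.9% to 75.6%), while the untreated libraries had 0 of 37 and 0 of 60. At the Sgo1 promoter 14 of the 15 covered cytosines are marked, since the last base printed has its partner outside the window. There the treated libraries had 27 of 30 calls methylated on day 1 (interval 73.5% to 97.9%) and 21 of 25 on day 0 (84.0%, 63.9% to 95.5%). At the Ndufaf7 promoter 18 of 27 treated calls were methylated on day 1 (66.7%, 46.0% to 83.5%), against 0 of 6 on day 0 (upper bound 45.9%). Within day 1 its replicates stood apart, with 3 of 9 and 15 of 18 calls. These intervals, by the method of Clopper and Pearson, take in counting error alone. They pool the replicates and take calls as independent, though 1 read can give calls at several cytosines. For Hjurp and Sgo1 the intervals of the days overlap. For Ndufaf7 they nearly touch (45.9% and 46.0%) and day 0 rests on 6 calls, so no day difference is read from them. Untreated libraries had 0 calls at Ndufaf7. At Sgo1 they had 0 of 6 methylated on day 0 and 0 calls on day 1.

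The libraries of day 1 were deeper than those of day 0. After leaving out sites over 100 reads, they held 786258 and 803920 autosomal sites with the enzyme and 1005304 and 984244 without it, against 563001 and 553740 with it and 497944 and 435133 without it on day 0. Only sites of at least 3 reads are listed, and 87.4% to 88.2% of them had exactly 3, so most sites sit at the limit of detection and a site share depends on depth. Depth and day moved together, and their parts in the gains below cannot be told apart.

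All 4 chromosomes held a larger share of the autosomal sites on day 1, in treated and in untreated libraries. Chromosome 1 held 8.08% and 8.11% in treated and 8.10% and 8.06% in untreated libraries of day 1, against 6.60% and 6.66% in treated and 6.41% and 6.34% in untreated libraries of day 0. Its mean was 8.09% ± 0.0213 on day 1 and 6.50% ± 0.150 on day 0 (SD, n = 4 libraries a day). The day 1 libraries lay within a narrow band and did not overlap those of day 0.

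Chromosome 16, which of the 4 has the fewest sites per Mb, held 2.25% and 2.25% in treated and 2.23% and 2.27% in untreated libraries of day 1, against 1.82% and 1.88% in treated and 1.86% and 1.72% in untreated libraries of day 0. Chromosome 17, which of the 4 has the most, held 8.72% and 8.73% in treated and 8.63% and 8.51% in untreated libraries of day 1, against 6.85% and 6.79% in treated and 7.11% and 7.10% in untreated libraries of day 0. Chromosome 19 held 3.80% and 3.80% in treated and 3.81% and 3.84% in untreated libraries of day 1, against 2.99% and 2.97% in treated and 3.06% and 3.05% in untreated libraries of day 0. The days did not overlap on any of the 4. The means were 2.25% ± 0.0160 and 1.82% ± 0.0696 on chromosome 16, 8.65% ± 0.10 and 6.97% ± 0.167 on chromosome 17, and 3.81% ± 0.0200 and 3.01% ± 0.0453 on chromosome 19 (day 1 and day 0, SD, n = 4 each).

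As a log2 ratio of mean shares, called the gain from here on, this is 0.32 for chromosome 1, 0.31 for chromosomes 16 and 17 and 0.34 for chromosome 19, or 1.24-, 1.24-, 1.24- and 1.26-fold. The gain was 0.29 in treated and 0.34 in untreated libraries on chromosome 1, 0.28 and 0.33 on chromosome 16, 0.35 and 0.27 on chromosome 17, and 0.35 and 0.33 on chromosome 19. Shares add up to a whole, and chromosomes 3, 12 and 13 held a smaller share on day 1. Counted among the sites outside those 3, the gains were 0.22, 0.21, 0.22 and 0.25. The chromosomes differ widely in density, from a mean of 154 sites per Mb and library on chromosome 16 and 274 on chromosome 1 to 420 on chromosome 19 and 614 on chromosome 17, against 292 over all autosomes, so a like gain was read at unlike densities.

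**Figure D1:**
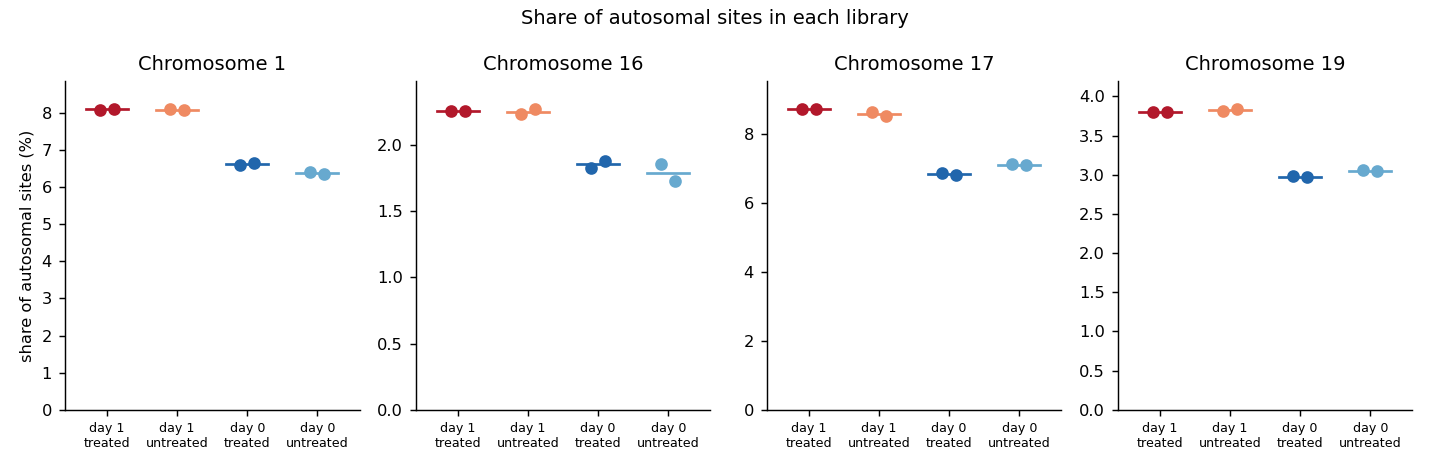
Share of autosomal sites (%, y axis from 0) on chromosomes 1, 16, 17 and 19 in each of the 8 libraries, by group; points are libraries and bars group means. On each chromosome the 4 day 1 libraries lie above the 4 day 0 libraries, at a mean of 8.09% against 6.50% on chromosome 1.

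The size of the gain depended on how many reads a site needed. With sites of at least 4 reads it was 0.47 on chromosome 1, 0.07 on chromosome 16, 0.27 on chromosome 17 and 0.53 on chromosome 19, and with sites of at least 5 reads it was 0.79, -0.26, 0.08 and 0.65. Chromosome 16 thus changed direction. When reads were counted in place of sites, the gain was 0.36 on chromosome 1, 0.06 on chromosome 17 and 0.37 on chromosome 19. These values were also taken without windows of many reads per site. Without the windows of at least 3.5 reads per site (67 on all autosomes, of which 6, 7, 5 and 2 on chromosomes 1, 16, 17 and 19), a threshold chosen after their values were seen, the gains were 0.31, 0.36, 0.35 and 0.33. In those remaining windows they were 0.39, 0.47, 0.51 and 0.42 with sites of at least 4 reads, and 0.45, 0.47, 0.82 and 0.49 with sites of at least 5 reads, so that all 4 chromosomes gained at each limit.

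**Figure D2:**
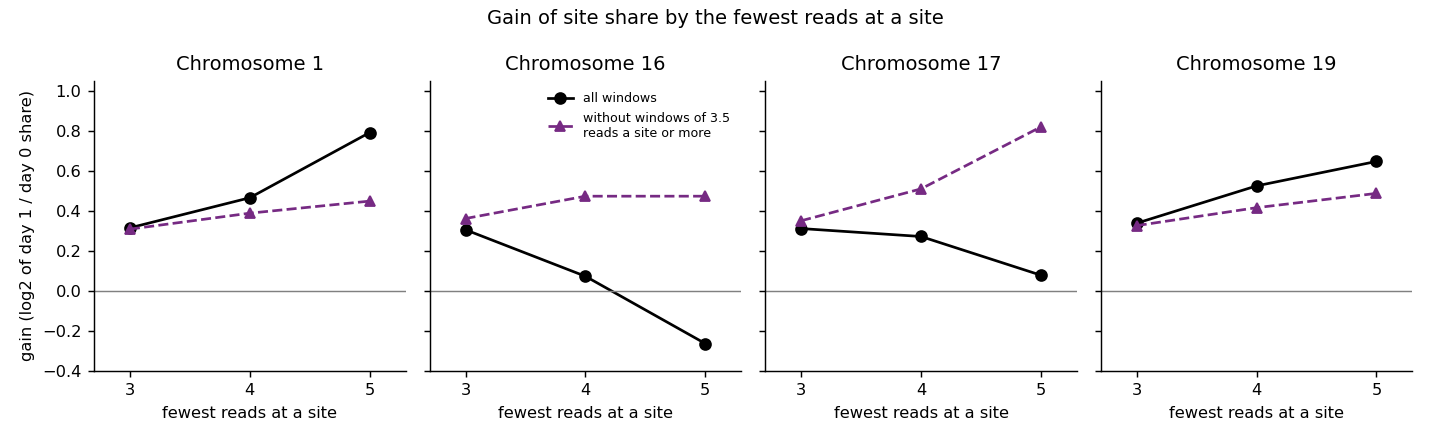
Gain of site share (log2 of day 1 over day 0, y axis) by the fewest reads a site needed to be counted (x axis), over all windows (circles) and without windows of at least 3.5 reads per site (triangles). Over all windows chromosome 16 falls below 0 at 5 reads (-0.26), and without the deep windows all 4 chromosomes stay above 0.

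The gain was spread over nearly all windows. Of the 421 windows on the 4 chromosomes with a mean of at least 50 sites a library, 399 held a larger share on day 1 (182 of 191 on chromosome 1, 71 of 79 on chromosome 16, 89 of 92 on chromosome 17 and 57 of 59 on chromosome 19). In 190 of the 421 (45.1%) the 4 libraries of day 1 all lay above the 4 of day 0, where 18.2% of all 2290 autosomal windows did, and in 4 they all lay below, where 14.4% of all did. Since the chromosomes were chosen by this contrast, nothing is read from the excess. The median window gain was 0.36 on chromosome 1, 0.37 on chromosome 16, 0.45 on chromosome 17 and 0.43 on chromosome 19, and 0.09 over all autosomal windows. Such a spread was not particular to the 4. The highest medians outside them were 0.45 on chromosome 11, where 114 of 119 tested windows gained, and 0.34 on chromosome 10, where 120 of 128 did. Cut into 10 equal stretches, each chromosome gained in all 10, and the libraries of the days did not overlap in 10, 7, 9 and 9 of them. The stretches ranged from 0.21 to 0.50 on chromosome 1, from 0.12 to 0.55 on chromosome 16, from 0.16 to 0.56 on chromosome 17 and from 0.10 to 0.60 on chromosome 19.

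The windows of a chromosome nevertheless differed from each other by more than the libraries did. The SD of the window gain was 0.23 on chromosome 1, 0.34 on chromosome 16, 0.28 on chromosome 17 and 0.20 on chromosome 19, against standard errors of 0.18, 0.23, 0.15 and 0.15 expected from the spread between replicates. The ratio of SD to standard error was 1.30, 1.49, 1.85 and 1.37, and it ran from 1.02 on chromosome 3 to 1.75 on chromosome 15 over the other 15 autosomes. The treated and untreated libraries gave separate readings of each window's gain. Their correlation across windows was 0.28 (n = 191), 0.22 (n = 79), 0.45 (n = 92) and 0.29 (n = 59) on chromosomes 1, 16, 17 and 19, a description only, since windows of one library share its depth and windows with few sites are noisy.

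Chromosome 1 fell into 2 segments by least-squares partitioning. The gain was 0.47 over 82 windows at chr1:3000001-85000000 and 0.29 over 109 windows at chr1:85000001-196000000. A segment's gain, here and below, is the unweighted mean of the gains of its windows. It is not the log2 ratio of the segment's summed shares, which are given beside it and can yield another value. The first segment held 3.07% and 3.12% of the autosomal sites in treated and 3.08% and 3.08% in untreated libraries of day 1, against 2.35% and 2.43% in treated and 2.17% and 2.19% in untreated libraries of day 0. The second held 4.99% and 4.98% in treated and 5.01% and 4.97% in untreated libraries of day 1, against 4.23% and 4.21% in treated and 4.23% and 4.14% in untreated libraries of day 0. Both gained without overlap of the days, and the break was found in 16 of 17 alternatives within 5 Mb, among them treated and untreated libraries alone and each of the 8 fits that left out a library. The exception was the gain minus its trend on sites per window.

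At that break the window chr1:84000001-85000000 (Dner, Pid1 and Trip12) gained 0.56, and its neighbour chr1:85000001-86000000 (Sp100, Gpr55 and Cab39) gained 0.17. The second of them is dense, with a mean of 1778 sites a library and 4.32 reads per site. The highest gain on the chromosome was at chr1:6000001-7000000, which holds St18, a zinc finger transcription factor, Rb1cc1, an autophagy factor, and Alkal1. It held 0.0313% and 0.0330% in treated and 0.0299% and 0.0288% in untreated libraries of day 1, against 0.0183% and 0.0181% in treated and 0.0143% and 0.0122% in untreated libraries of day 0, a gain of 0.97 with no overlap. Next came chr1:77000001-78000000 with Epha4, an ephrin receptor, at 0.84. The lowest were chr1:95000001-96000000 (St8sia4 and Fam174a) at -0.23, with 0.29 in treated and -0.67 in untreated libraries, and chr1:96000001-97000000 (Slco4c1) at -0.18, with -0.47 and 0.14. In both, treated and untreated libraries moved in opposite directions and the days overlapped. The first window (Xkr4) gained 0.48 and the last (Cd46, Cr2 and Cr1l) had -0.04, both with overlap.

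Chromosome 16 fell into 2 segments as well, with 0.48 over 49 windows at chr16:3000001-57000000 and 0.22 over 30 windows at chr16:57000001-98000000. The second segment held 0.583% and 0.564% in treated and 0.593% and 0.606% in untreated libraries of day 1, against 0.522% and 0.521% in treated and 0.543% and 0.504% in untreated libraries of day 0. It is thinly covered, with a median of 89.1 sites per window against 171 in the first segment. The break came back in 14 of 17 alternatives, but with treated or untreated libraries alone, or with a penalty of 5, no break was found.

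The window before the break (Abi3bp, Senp7 and Tmem45a) gained 0.50, and the one after it (Cmss1, Filip1l and Col8a1) had -0.02 at 7.49 reads per site. The first window of the chromosome went against the rest. At chr16:3000001-4000000, with Nlrc3, Cluap1 and Naa60, the share was 0.0889% and 0.0876% in treated and 0.0850% and 0.0838% in untreated libraries of day 1, against 0.131% and 0.131% in treated and 0.121% and 0.145% in untreated libraries of day 0. Every day 1 library lay below every day 0 library, a gain of -0.62, at 5.05 reads per site. Chr16:95000001-96000000 had -0.31, with overlap, and holds Erg and Ets2, both ETS factors, beside Kcnj15. The highest gains were 1.06 at chr16:86000001-87000000, a window with no protein-coding gene, a mean of only 62.5 sites and overlap of the days, and 0.96 at chr16:72000001-73000000 with the axon guidance receptor Robo1, without overlap. The last window (Dscam, Tmprss2 and Bace2) gained 0.05.

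Chromosome 17 gave 3 segments, with 0.36 over 55 windows at chr17:3000001-58000000, 0.82 over 5 windows at chr17:58000001-63000000 and 0.49 over 32 windows to its end. The short segment held 0.144% and 0.145% in treated and 0.164% and 0.132% in untreated libraries of day 1, against 0.0918% and 0.103% in treated and 0.0843% and 0.0646% in untreated libraries of day 0. A break near its start was found in 8 of 17 alternatives, and both of its breaks as separate ones in 6. Both were lost in treated libraries alone. Of the 8 fits that left out a library, both breaks came back in 2, without the second untreated library of day 1 and without the second treated library of day 0. The third segment gained in all 32 windows, without overlap in 24.

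The short segment holds the highest gains of the chromosome. Chr17:59000001-60000000 with Nudt12, an NADH pyrophosphatase, held 0.0216% and 0.0264% in treated and 0.0335% and 0.0184% in untreated libraries of day 1, against 0.0151% and 0.0154% in treated and 0.0108% and 0.00575% in untreated libraries of day 0, a gain of 1.09. The day 0 libraries were lower in each case, but their site counts were small, at 85, 85, 54 and 25. Chr17:61000001-62000000, without a protein-coding gene, gained 1.04, and chr17:58000001-59000000 (Cntnap5c and Pdzph1) gained 1.01 with 18 and 117 sites in the untreated libraries of day 0. The windows on the outer sides of the breaks gained 0.22 (Cntnap5c, Adgre1 and Vav1) and 0.49 (Fbxl17 and Fer), and chr17:62000001-63000000 with the ephrin ligand Efna5 gained 0.47.

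Chromosome 17 also holds 3 of the 4 windows that were lower on day 1 without overlap. Chr17:39000001-40000000, with the exocrine gland peptide genes Esp38, Esp15 and Esp16, held 0.0982% and 0.102% in treated and 0.0782% and 0.0757% in untreated libraries of day 1, against 0.128% and 0.129% in treated and 0.141% and 0.163% in untreated libraries of day 0. This is a gain of -0.66, at 32.8 reads per site. Its first window, chr17:3000001-4000000 (Tiam2, Scaf8 and Nox3), had -0.43 at 5.61 reads per site, and chr17:13000001-14000000 (Afdn, Tcte2 and Unc93a) had -0.27 at 15.4 reads per site. All 4 such windows, the one on chromosome 16 included, had at least 5 reads per site. Of the 20 tested windows with at least 3.5 reads per site on the 4 chromosomes, 8 had a negative gain and the median was 0.09, against 14 of the other 401 and a median of 0.41. The last window (Mettl4) gained 0.47.

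Chromosome 19 gave 3 segments, with 0.09 over 5 windows at chr19:3000001-8000000, 0.47 over 46 windows at chr19:8000001-54000000 and 0.26 over 8 windows to its end. The first, at a median of 46 protein-coding genes per window against 6 in the second, held 0.603% and 0.643% in treated and 0.604% and 0.651% in untreated libraries of day 1, against 0.558% and 0.549% in treated and 0.647% and 0.630% in untreated libraries of day 0. Its treated libraries lay higher on day 1 (mean window gain 0.18) and its untreated ones overlapped (mean window gain 0.00). The second segment held 2.66% and 2.57% in treated and 2.61% and 2.62% in untreated libraries of day 1, against 1.98% and 1.93% in treated and 1.95% and 1.94% in untreated libraries of day 0, and gained in all 46 windows. The first break came back in 15 of 17 alternatives but not in treated libraries alone or in windows of 2 Mb. The second break came back in 9, but neither in treated nor in untreated libraries alone, and was lost in 4 of the 8 fits that left out a library (the first treated and the second untreated library of day 1, and the second of each group of day 0).

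The gains at the first break were 0.24 (Macrod1, Slc22a27 and Flrt1) and 0.43 (Slc22a29, Slc22a28 and Slc22a30, organic anion transporters), and those at the second 0.38 (Rbm20, Add3 and Mxi1) and 0.22 (Shoc2 and Adra2a). The highest windows were chr19:51000001-52000000, without a protein-coding gene, at 0.89, and chr19:20000001-21000000 at 0.74, with the hair cell channel gene Tmc1 and the aldehyde dehydrogenases Aldh1a1 and Aldh1a7. Chr19:20000001-21000000 held 0.0296% and 0.0294% in treated and 0.0318% and 0.0230% in untreated libraries of day 1, against 0.0135% and 0.0226% in treated and 0.0155% and 0.0168% in untreated libraries of day 0. The days did not overlap in either window. The lowest were chr19:6000001-7000000 (Nrxn2, Majin and Ehd1) and the last window, chr19:61000001-62000000 (Grk5, Zfp950 and Csf2ra), both at -0.13 and both with overlap. The first window (Ppp6r3, Lrp5 and Cpt1a) gained 0.14.

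**Figure D3:**
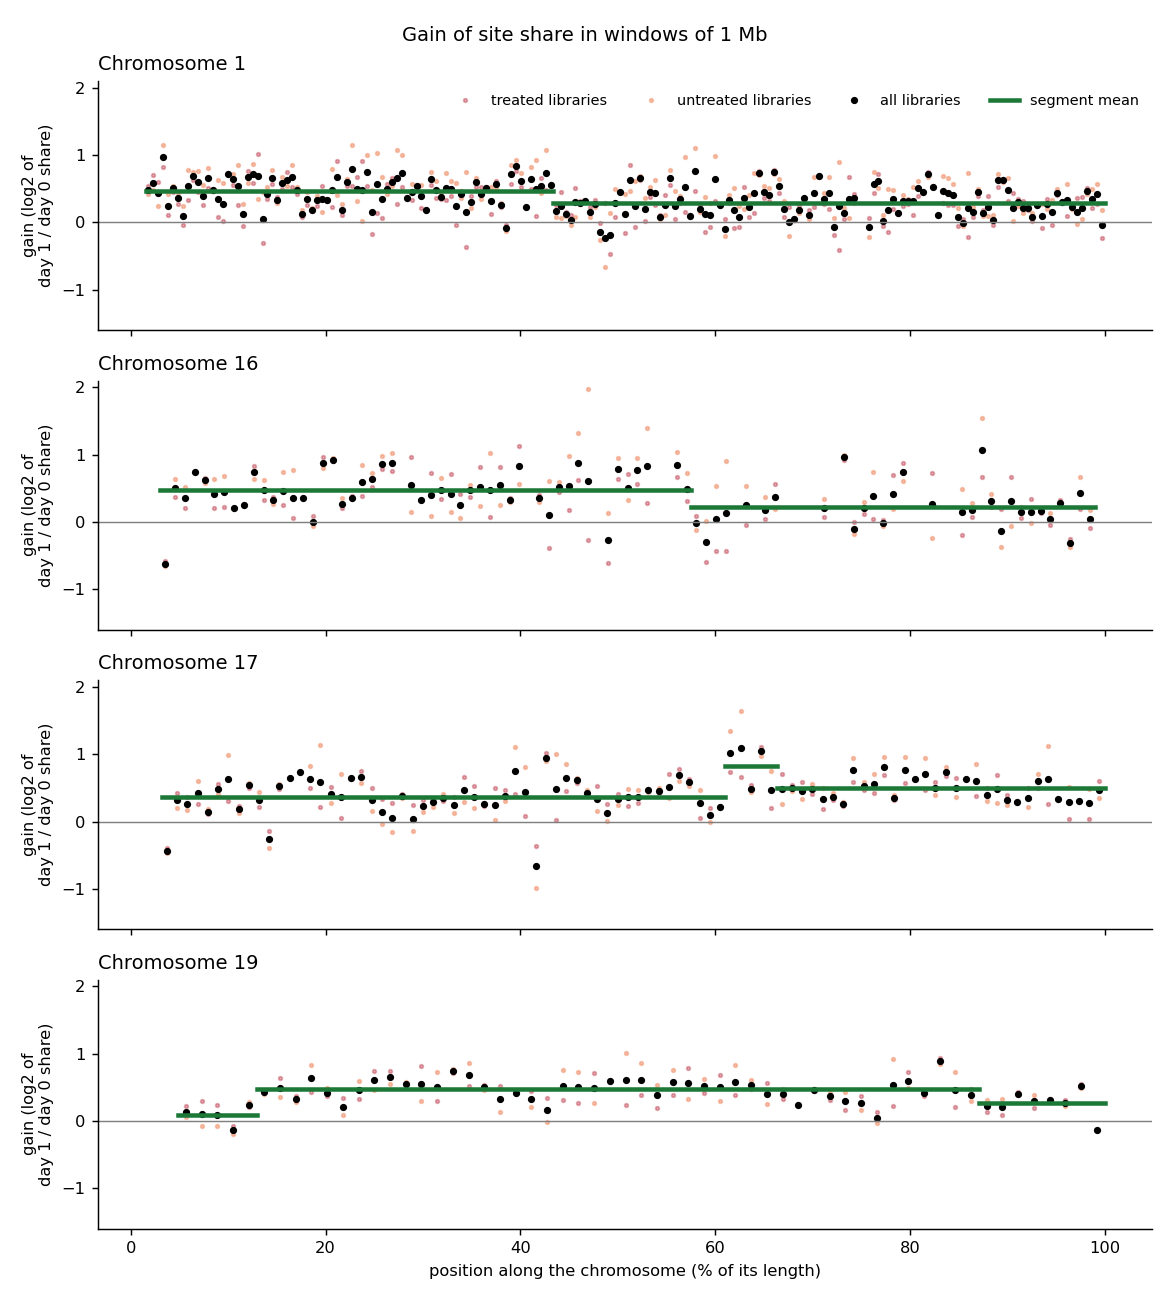
Gain of site share (log2 of day 1 over day 0, y axis) of each 1 Mb window with a mean of at least 50 sites along chromosomes 1, 16, 17 and 19 (x axis, % of the length), in treated, untreated and all libraries; green bars are segment means. Nearly all black points lie above 0, and the segment means run between 0.09 and 0.82.

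Several segments on one chromosome were not particular to these 4. The same partitioning gave 1 to 3 segments on each of the other 15 autosomes, with a median of 2 and a single segment on 4 of them.

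Windows with fewer sites gained more. On chromosome 1 the windows above the chromosome's median of sites had a median gain of 0.32 and those at or below it 0.44. These values were 0.36 and 0.40 on chromosome 16, 0.36 and 0.53 on chromosome 17, and 0.33 and 0.52 on chromosome 19. All 19 autosomes ran this way. Split by protein-coding genes, windows above the median and the rest gained 0.32 and 0.43 on chromosome 1, 0.35 and 0.46 on chromosome 16, 0.36 and 0.48 on chromosome 17, and 0.39 and 0.50 on chromosome 19. Across windows the correlation of the gain with log2 sites was -0.15, -0.18, -0.53 and -0.51 on chromosomes 1, 16, 17 and 19 (n = 191, 79, 92 and 59). It is a description across windows that share their libraries, and a window's sites enter both axes. With its trend on sites removed, the SD of the gain was 0.21, 0.31, 0.22 and 0.17.

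**Figure D4:**
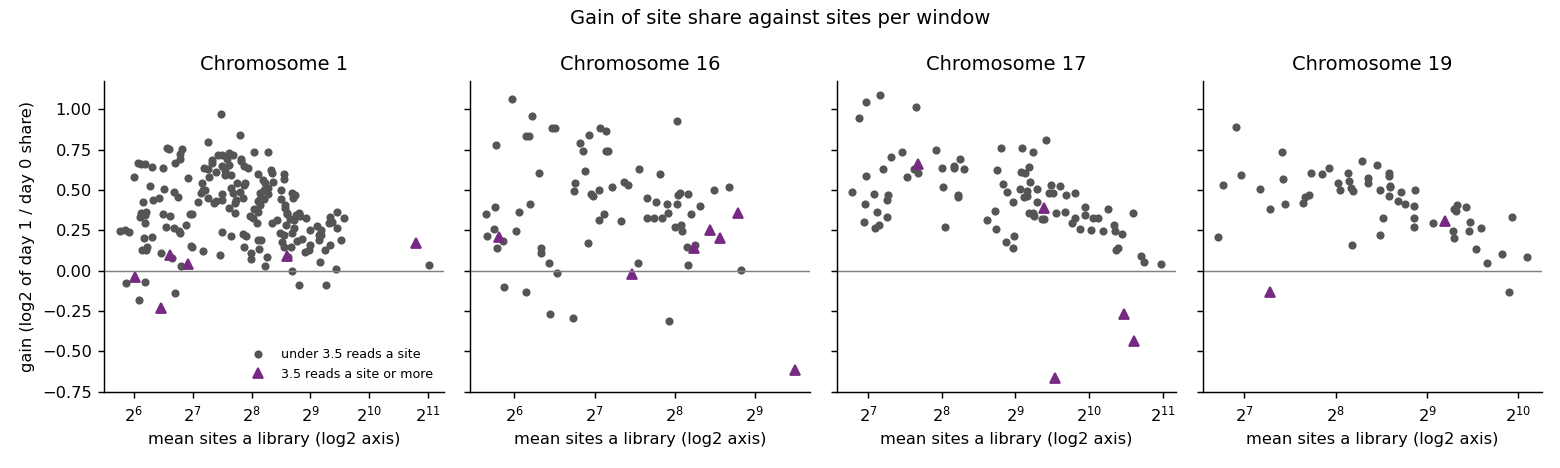
Gain of site share (log2 of day 1 over day 0, y axis) against the mean number of sites a library (log2 x axis) for the 421 tested windows; triangles have at least 3.5 reads per site. Points slope downward on chromosomes 17 and 19 (r = -0.53 and -0.51). The single lowest point of chromosome 16 and that of chromosome 17 are triangles.

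Reads per site differed between the days more on chromosomes 16 and 17 than on chromosomes 1 and 19. Chromosome 17 had 3.73 ± 0.00546 reads per site in treated libraries of day 1 and 4.44 ± 0.0273 in those of day 0, and 3.64 ± 0.00512 and 4.64 ± 0.149 in untreated libraries of day 1 and day 0 (SD, n = 2 each). Chromosome 16 had 3.26 ± 0.00133 and 3.47 ± 0.0247 in treated libraries, and 3.26 ± 0.000156 and 3.53 ± 0.0726 in untreated ones, in the same order of days. Chromosome 1 stood at 3.19 on both days in treated libraries, and chromosome 19 at 3.15 on day 1 and 3.20 on day 0. The day 1 libraries all lay below the day 0 libraries on chromosomes 16, 17 and 19, by far less on chromosome 19, and overlapped them on chromosome 1. The share of sites with at least 4 reads was 12.2% on day 1 and 11.9% on day 0 in treated libraries on chromosome 1, 10.3% and 13.1% on chromosome 16, 15.9% and 17.2% on chromosome 17, and 11.2% and 10.6% on chromosome 19.

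The gain was next compared with and without the enzyme, a contrast that did not choose the chromosomes. Depth differed along it too. Untreated libraries had 497944 and 435133 autosomal sites on day 0 and 1005304 and 984244 on day 1. Treated ones had 563001 and 553740, then 786258 and 803920. The part of depth in the enzyme contrasts of share was not tested. In edgeR's quasi-likelihood fit over all 2290 windows, the gains of treated and untreated libraries were compared. After Benjamini-Hochberg adjustment they differed in 0 of the 421 windows, where 0.0437% of all autosomal windows did. An unadjusted edgeR p under 0.05 was reached by 40 of the 421 and by 200 of all 2290. DESeq2 called 5 of the 421 (1.19%, against 0.917% of all windows), all with the larger gain in treated libraries. Without the first untreated library of day 0 edgeR called 2 (0.475%, against 0.131% of all), both with the smaller gain in treated libraries. For whole chromosomes the treated gain minus the untreated gain was -0.05 on chromosomes 1 and 16, 0.08 on chromosome 17 and 0.03 on chromosome 19. These 4 differences are given with no test.

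Within a day, treated and untreated libraries differed in few windows. On day 1 0 of 421 windows passed the threshold in edgeR's quasi-likelihood test, where 0.0437% of all windows did, and 0 passed in DESeq2. An unadjusted edgeR p under 0.05 was reached by 10 of the 421 and by 62 of all 2290 windows. On day 0 5 of 421 passed (1.19%), where 0.873% of all did. Treated libraries were higher at chr16:46000001-47000000, which holds Nectin3, a cell adhesion gene, and Cd96, a receptor of T and NK cells, beside Plcxd2. There they had 89 and 54 sites, against 28 and 7 in untreated libraries, a log2 difference of 1.79 (edgeR adjusted p = 0.0277). They were also higher in the window next to it, chr16:45000001-46000000 (Phldb2, Slc9c1 and Cd200r3), by 1.13 (edgeR adjusted p = 0.0490). They were lower at chr17:25000001-26000000 (Lmf1, Ift140 and the calcium channel gene Cacna1h), with a share of 0.214% and 0.203% against 0.257% and 0.284% in untreated libraries, a log2 difference of -0.38 (edgeR adjusted p = 0.0246). The windows chr17:35000001-36000000 with the collagen receptor Ddr1, the meiotic gene Msh5 and the DNA damage mediator Mdc1 (-0.39, edgeR adjusted p = 0.0490) and chr17:45000001-46000000 with Supt3, Cdc5l and Spats1 (-0.45, edgeR adjusted p = 0.0322) were lower too. The groups did not overlap in any of the 5 windows. The higher calls were lost in DESeq2, which gave 0 higher and 7 lower windows (1.66%, and 1.66% of all windows). They were also lost at a mean of at least 100 sites, which gave 0 higher and 3 lower ones (0.833%, against 1% of all). Leaving out any 1 of the 8 libraries left 0 to 3 calls.

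Over whole chromosomes the share of treated over untreated libraries, as a mean log2 difference over both days, was 0.03 on chromosomes 1 and 16 and -0.02 on chromosomes 17 and 19. The exact permutation p was 0.111, 0.50, 0.333 and 0.0556 (two-sided, 36 arrangements, smallest possible p 0.0556, adjusted p at least 0.211 over 19 autosomes).

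The level was far higher with the enzyme on all 4 chromosomes. In limma 424 of the 425 windows with at least 50 calls in every library had a higher level in treated libraries on day 0, where 99.9% of all 2314 such windows did, and all 425 did on day 1, where 100% did. The median log2 odds difference was 3.90, 3.98, 4.08 and 4.07 on day 0 on chromosomes 1, 16, 17 and 19, and 5.46, 5.26, 5.43 and 5.35 on day 1. These odds are taken against a low untreated level that itself differed between the days. On chromosome 1 it was 2.22% on day 0 and 0.959% on day 1, against 28.3% and 29.6% in treated libraries. The larger values of day 1 are thus not read as a stronger signal of the enzyme. Over both days the treated level exceeded the untreated one by 27.4, 28.4, 31.6 and 28.0 percentage points (exact permutation p = 0.0556 each, the smallest possible).

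Between the days the treated level lay slightly higher on day 1 and the untreated level lower. Chromosome 1 had 29.8% and 29.5% methylated calls in treated libraries of day 1, against 28.3% and 28.3% in those of day 0, and 1.01% and 0.910% in untreated libraries of day 1, against 2.16% and 2.28% on day 0. Chromosome 16 had 30.9% and 30.4% in treated libraries of day 1, against 29.8% and 29.2% on day 0, and 1.10% and 1.04% in untreated libraries, against 2.19% and 2.28%. Chromosome 19 had 30.2% and 30.0% in treated libraries of day 1, against 29.0% and 28.8% on day 0, and 0.983% and 0.989% in untreated libraries, against 2.03% and 2.0%. The days did not overlap in any of these.

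On chromosome 17 the treated level was 33.2% and 33.3% on day 1, against 33.2% and 32.7% on day 0, so that its days overlapped, and the untreated level was 1.13% and 1.02%, against 1.90% and 2.06%. Its treated difference between the days was 0.345 points, against 1.35 on chromosome 1, 1.19 on chromosome 16, 1.20 on chromosome 19 and 1.34 on the other 15 autosomes. Chr17:39000001-40000000, at 32.8 reads per site, had treated levels of 70.6% and 69.3% on day 1 and 61.6% and 62.7% on day 0, and its share of sites was lower on day 1. Without windows of at least 3.5 reads per site the treated level of chromosome 17 was 30.1% ± 0.162 on day 1 and 28.7% ± 0.246 on day 0 (SD, n = 2 each), a difference of 1.45 points. The differences on chromosomes 1, 16 and 19 were then 1.34, 1.47 and 1.18.

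The day difference of treated libraries minus that of untreated ones was 2.61 points on chromosome 1, 2.35 on chromosome 16, 1.26 on chromosome 17 and 2.22 on chromosome 19. These differences are given with no test, since they compare the days. The difference was 2.02 to 3.56 points on the other 15 autosomes. By window the treated level lay higher on day 1 without overlap in 145 of 425 windows, where 32.7% of all autosomal windows did, and lower in 27, where 7.74% did. The untreated level lay lower in 329, where 77.1% did, and higher in 3, where 0.691% did. These shares are near the background. The correlation across windows between the gain of share and the day difference of the treated level was 0.09, 0.10, -0.15 and 0.07 on chromosomes 1, 16, 17 and 19.

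**Figure D5:**
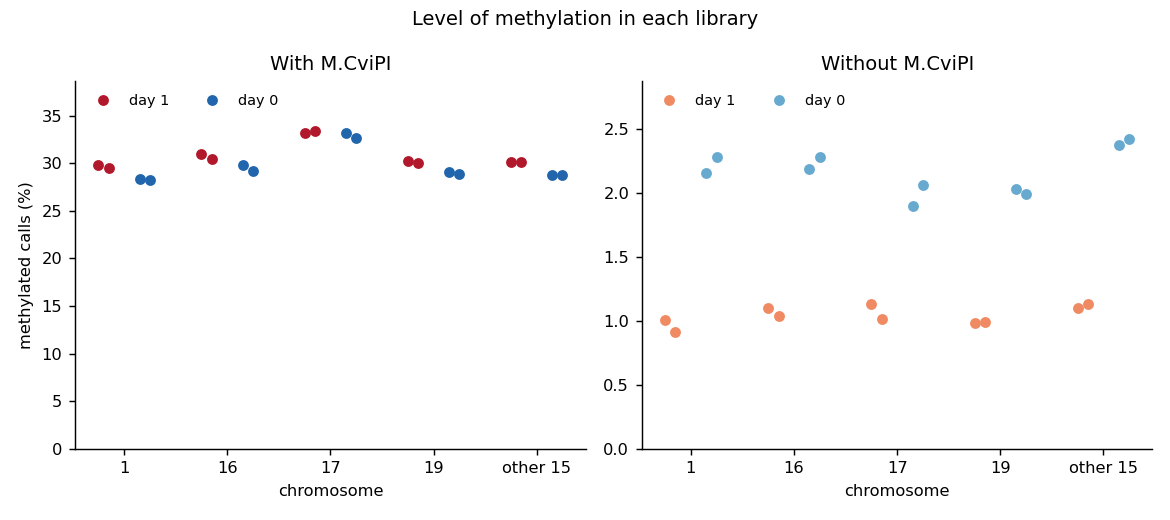
Methylated calls (%, y axis from 0) in each library with M.CviPI (left) and without it (right) on chromosomes 1, 16, 17 and 19 and on the other 15 autosomes together. Treated levels lie between 28.3% and 33.3% on the 4 chromosomes, and untreated levels lie near 1% on day 1 and 2% on day 0.

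Genes of fibroblast identity and of the fates Etv2 drives were read through the window that holds them. Genes that share a window share its value, and a window value is no measure of the gene itself. Of the 67 endothelial and blood genes listed, 31 lie on the 4 chromosomes. Their windows had a larger share on day 1 for 28, with a median gain of 0.22. For 10 it was larger without overlap of the days. Of the tested windows on the 4 chromosomes 45.1% were so, and of all autosomal windows 18.2%. The highest were Ptprc, the leukocyte phosphatase CD45 (0.69), Ikzf2, a lymphoid zinc finger factor (0.60), and Sox17, an arterial endothelial factor (0.59). The window of Sox17 held 0.0332% and 0.0342% in treated and 0.0318% and 0.0318% in untreated libraries of day 1, against 0.0208% and 0.0206% in treated and 0.0247% and 0.0209% in untreated libraries of day 0. The lowest were Erg and Ets2, which share a window (-0.31), and the growth factor gene Vegfb (-0.13), all with overlap.

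Of the 60 fibroblast and matrix genes, 28 lie on the 4 chromosomes. Of these, 27 had a larger share on day 1, 17 without overlap, at a median of 0.32. For this list and those below, the background of higher windows without overlap is 45.1% of the tested windows on the 4 chromosomes. It is 18.2% of all autosomal windows. The chromosomes were chosen by this contrast and genes can share a window, so nothing is read from the counts. The highest were Col19a1 and Col9a1, collagens in 1 window (0.71), and Acta2, smooth muscle actin (0.57). The lowest were Col8a1 (-0.02), Col17a1 (0.05) and the matrix proteoglycan Prelp (0.05). Of 38 genes of the cell cycle and growth, 18 lie there, all with a larger share and 9 without overlap, at a median of 0.36. Mcm3, a subunit of the replicative helicase (0.64), and the centromere protein Cenpl (0.53) were among the highest, and the lowest were the replication genes Pold4 (0.10), Pola2 (0.08) and Cdc45 (0.01). Of 46 chromatin and DNA methylation genes, 24 lie there, all with a larger share and 9 without overlap, at a median of 0.25. Hells, a remodeler needed for DNA methylation (0.58), Smchd1, a factor of X inactivation (0.53), and Ino80d (0.51) were highest, and the acetyltransferase Kat5 (0.08), the chromatin assembly gene Chaf1b (0.04) and the histone chaperone Hira (0.01) lowest. No member of any list lay in one of the 4 windows that were lower without overlap. The medians of the lists lie below the 0.40 of all tested windows on the 4 chromosomes and above the 0.09 of all autosomes.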

How the data were processed

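NOMe-seq libraries of MEF (8 libraries, 4 groups of 2) were read from the deposited tables of 1 line per cytosine. The authors gave the fraction of methylated reads, rounded to 2 decimals, and a count of reads at every site, as read from the values of the deposited columns, since the tables have no header. Every fraction times its count was whole within rounding (a tolerance of 0.005 on the fraction). The build was mm10, per the submitters' processing notes. Which aligner and caller were used, and how duplicates were handled, is not given in the sources used here.

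Sites of at most 100 reads on the 19 autosomes were summed in windows of 1 Mb. The site share is a window's or chromosome's sites over all autosomal sites of the library, the gain is the log2 ratio of mean shares (day 1 over day 0), and the level is methylated over all calls, where a call is 1 read at 1 site. Windows entered share comparisons with a mean of at least 50 sites a library. Segments were found by exact least-squares partitioning with at least 5 windows a segment and a penalty of 3 times the noise variance times the natural log of the number of windows per break. The gain given for a segment is the unweighted mean of the gains of its windows. Sites per window, which are whole-number counts, were tested in edgeR 4.0.16 (quasi-likelihood, library size the autosomal sites, all 8 libraries), with DESeq2 1.42.0 as an alternative, and levels in limma 3.58.1 on log2((methylated + 1)/(unmethylated + 1)) for windows of at least 50 calls in every library, at a Benjamini-Hochberg threshold of 0.05. Chromosome values were tested by exact permutation of the enzyme labels within days. The fits were tested on simulated data. R 4.3.3 and Python 3.11.15 were used.

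The chromosomes, windows and gene lists were chosen with earlier results of these data known. On each chromosome the named windows are the 2 highest and the 2 lowest gains, those beside a break, and the first and last. The windows lower on day 1 without overlap, and those called with the enzyme on day 0, were named after their values were seen. Up to 3 protein-coding genes with the most bases in a window are given. In each list the 3 genes with the highest and the 3 with the lowest window gains are named. A gene that this rule picks is not reported here. Gene positions and promoter sequences are from RefSeq (GRCm38.p6). The genome sequence was not used here, so base composition and mappability of windows were not analysed.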

Additional observations from a re-analysis of the deposited data

Results flagged for a closer look

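Treated and untreated libraries lay in opposite directions between the days, with no overlap of the days in either, in 6 of the values examined. The treated level was higher and the untreated level lower on day 1 in every library of chromosome 1 (difference of the day differences 2.61 points), chromosome 16 (2.35 points) and chromosome 19 (2.22 points). They were picked for this separation, so no test is given. The other 15 autosomes had 2.02 to 3.56 points. The gain of site share differed in the same sense by 0.96 on the log2 scale at chr1:95000001-96000000 and by 0.431 at chr17:25000001-26000000, where treated libraries were higher and untreated ones lower on day 1. It differed in the other sense by -0.268 at chr16:97000001-98000000. For these 3 windows no adjusted p of the difference between the gains passed in edgeR. They were picked from the windows named above because their libraries separated. Chr17:25000001-26000000 had been named for its call with the enzyme on day 0 (edgeR adjusted p = 0.0246).

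Sites over 100 reads were left out of the report and also carried a signal with the enzyme. On the 4 chromosomes the treated level exceeded the untreated one by 23.9 points on day 1 (27.0% ± 1.88 against 3.03% ± 0.796, SD, n = 2 each) and by 23.2 points on day 0 (24.7% ± 1.29 against 1.5% ± 0.248). These rest on 2 to 6 sites a library on day 1 and 19 to 60 on day 0, all but 3 of the site entries on chromosome 17.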

How the results depend on the processing

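Without 1 library the gain ran from 0.30 to 0.33 (chromosome 1), 0.28 to 0.32 (16), 0.30 to 0.32 (17) and 0.33 to 0.35 (19). With sites of at least 4 reads it was 0.47, 0.073, 0.27 and 0.53, and with at least 5 reads 0.79, -0.26, 0.078 and 0.65 (chromosomes 1, 16, 17 and 19). With windows of at least 3.5 reads per site removed, chosen after seeing the data, chromosome 17 had 0.35, all 4 had 0.39, 0.47, 0.51 and 0.42 at 4 reads, and 0.45, 0.47, 0.82 and 0.49 at 5 reads. With reads counted it was 0.36 (chromosome 1), 0.056 (17) and 0.37 (19), and outside chromosomes 3, 12 and 13 it was 0.22, 0.21, 0.22 and 0.25. Chromosome 17 had 0.35 in treated and 0.27 in untreated libraries.

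The number of segments was 1 on chromosome 16 with a penalty of 5 and in treated or untreated libraries alone, 6 on chromosome 17 and 5 on chromosome 19 with a penalty of 2, and 1 on chromosome 19 in treated libraries. Without 1 library it was 2 on chromosome 1, 2 to 3 on chromosome 16, and 2 to 4 on chromosomes 17 and 19. Between 394 and 398 windows gained without 1 library. Windows called for a different gain with the enzyme were 5 in DESeq2 (1.19%, against 0.917% of all windows). Windows called on day 0 were 9 with TMM factors (2.14%, against 1.7% of all windows). At a mean of at least 100 sites they were 3 (0.833%, against 1% of all). Level calls were 24 of 24 on both days with sites of at least 5 reads, where 100% of all such windows were called. Without 1 library nearly all windows kept their level call, on the 4 chromosomes and over all autosomes. The pooled level difference of treated libraries, 0.753 points, was 3.16 with sites of at least 5 reads, 1.37 without the windows of at least 3.5 reads per site, and 0.573 to 0.934 without 1 library. The untreated one, -1.06, was -0.590 with sites of at least 5 reads and -1.12 to -1.0 without 1 library. The log2 ratio of the share of sites with at least 4 reads, -0.0142, was -0.0288 to -0.00556 without 1 library, and it stood at -0.0578 in treated and 0.0294 in untreated libraries. The causes of these shifts were not tested.

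Same-numbered replicates did not deviate together across windows (correlations -0.00141 to 0.0350). Window shares carry counting noise and the labels name no pairing, so this cannot show whether such replicates share a culture or batch. With the replicate number as a block the calls were 0 for the difference of the gains, against 0.0437% of all windows. For the level they were 424 on day 0 and 425 on day 1, against 99.9% and 100% of all windows. For the share they were 6 on day 0 (1.43%, against 0.961% of all windows) and 0 on day 1. Most sites have 3 reads, so shares depend on depth, and a single site's level is not interpretable.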
